A study of Mus musculus with 4 samples.

Results

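The Zkscan genes encode zinc-finger proteins whose name stands for 2 domains they share, KRAB and SCAN. The 8 listed genes of this name were looked for in a PRO-seq count table of 12486 genes from mouse embryonic stem (mES) cells, and 7 had a row there: Zkscan1, Zkscan3, Zkscan5, Zkscan6, Zkscan8, Zkscan14 and Zkscan17. Zkscan4 had no row and was not analysed here. The family was selected on a measured value, because Zkscan8 had one of the lowest fold changes of the comparison described here. The changes below are therefore descriptions of these genes, and no test is read from them.

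All 4 libraries came from one mES cell line, in which the N terminus of Zfp574 carries an auxin-inducible degron (AID) and the plant ubiquitin ligase subunit OsTir1 is expressed from an EF1a promoter. The control group was the AID-Zfp574 line without treatment (0 h), and the depletion group was the same line after 6 h in 500 uM indole-3-acetic acid (IAA, an auxin), with 2 libraries each. The degron sends Zfp574, a zinc-finger protein, to the proteasome once IAA is added. Each line went through isolation of single clones, and cells without the degron given IAA were not analysed here, so that loss of Zfp574 and other actions of IAA cannot be told apart. PRO-seq marks the last base of RNA in the act of being made, so that its counts follow engaged RNA polymerase. A lower count from fewer transcribing cells and one from less polymerase per cell cannot be told apart in these bulk samples.

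In proteins of this family, C2H2 zinc fingers bind DNA, and the SCAN domain pairs them with other SCAN proteins. Many KRAB domains recruit the corepressor Trim28, which in turn brings in the histone methyltransferase Setdb1. Whether those of the Zkscan proteins do so was not tested here. Genes of this kind arose by duplication and often stand in clusters. In mES cells, KRAB zinc-finger proteins are best known for silencing transposable elements and for keeping imprints.

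The libraries held 3298864 and 3616429 control counts and 6045216 and 5670904 depletion counts. Counts relative to library size (CPM) are scaled here with TMM, which sets the middle of all genes near no change. A gene is named called where edgeR's quasi-likelihood test gave an adjusted p under 0.05 over the 11853 genes tested and the change was at least 2-fold. Markers of mES cells were present in full, with all 8 listed genes in the table and a summed level of 4105 to 4248 CPM across libraries. Of the primitive endoderm markers 1 of 3 had a row, with at most 1.42 CPM, and of the fibroblast markers 1 of 3, with at most 2.18 CPM. No mesoderm marker had a row, and the neural markers Pax6 and Sox1 summed to between 31.6 and 34.7 CPM in the controls and between 37.6 and 38.8 CPM after depletion. Their part in the values below was not tested.

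Zfp574 itself, whose protein the degron removes, was transcribed in all libraries, with 80 and 130 control counts and 195 and 219 depletion counts. Its log2 fold change came to 0.25 ± 0.14 (SE) and did not pass the adjusted p. These counts do not measure the protein.

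Zkscan8 was the member with the lowest fold change. It lies on chromosome 13 (ENSMUSG00000063894, chr13:21513222-21531120, minus strand, mm10). It had 55 and 59 control counts and 8 and 13 depletion counts, although the depletion libraries were the deeper ones. On the CPM scale these were 16.5 and 16.1 without IAA and 1.34 and 2.31 with it. The 2 groups lay far apart, and the depletion libraries differed more from each other, in proportion, than the controls did. The log2 fold change came to -3.15 ± 0.28 (SE), so that transcription fell to 11.3% of the control. It was the second lowest of all genes tested. With so few counts left, the value depended on which of them was used, and was -2.80 when replicate 1 of the depletion group was left out and -3.57 when replicate 2 was.

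The promoters of Zkscan8 and Zkscan1 are shown, the members that passed the adjusted p and have an entry in RefSeq's promoter table. Some of the searched sequences described further down lie in them. Each run goes from 150 bases before the RefSeq start to 10 bases after it, 5′ to 3′ on the gene's own strand, in build GRCm38.p6 (mm10). Capitals mark those sequences, in either orientation.

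Zkscan8, chr13:21531105-21531264, minus strand: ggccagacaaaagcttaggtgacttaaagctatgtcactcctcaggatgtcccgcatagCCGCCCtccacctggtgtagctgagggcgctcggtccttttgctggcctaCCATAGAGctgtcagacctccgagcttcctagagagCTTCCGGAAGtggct

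Zkscan1, chr5:138084934-138085093, plus strand: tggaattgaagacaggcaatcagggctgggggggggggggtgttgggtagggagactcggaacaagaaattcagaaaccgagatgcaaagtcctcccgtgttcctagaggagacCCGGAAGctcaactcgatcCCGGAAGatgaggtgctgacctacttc

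Zkscan3, a repressor of genes for autophagy and lysosomes, came next (ENSMUSG00000021327, chr13:21387003-21402755, minus strand). Its CPM was 43.0 and 41.5 without IAA, and 21.7 in both libraries with it. The replicates of each group nearly coincided while the groups differed almost 2-fold. The log2 fold change came to -0.96 ± 0.12 (SE), just short of the 2-fold limit, and it passed the adjusted p alone. Under the size factors recovered from the authors' table it was -1.06, and Zkscan3 was then called, in a fit where the median of all genes was itself lowered to -0.11. Those factors differed between replicates of a group, whereas the methods describe one spike-in factor per condition, so that what they stand for is uncertain.

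Zkscan1, best known as the host gene of a circular RNA, was the member with the most counts (ENSMUSG00000029729, chr5:138085084-138107822, plus strand). Its CPM was 73.3 and 68.2 without IAA and 44.5 and 47.0 with it, and the groups did not overlap. The log2 fold change came to -0.63 ± 0.10 (SE), which passed the adjusted p without reaching 2-fold.

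The other 4 members did not pass the adjusted p. Zkscan17 (ENSMUSG00000020472), which encodes a partner of the histone methyltransferase Nsd1, had 47.2 and 51.0 CPM without IAA and 40.8 and 38.6 with it, a log2 change of -0.31 ± 0.11 (SE). Zkscan5 (ENSMUSG00000055991) had 28.9 and 31.7 CPM against 25.0 and 24.0, a log2 change of -0.30 ± 0.13 (SE). In both, the depletion libraries lay below the controls by a small margin. Zkscan14 (ENSMUSG00000029627) had few counts, 14 and 21 in the control libraries against 22 and 17 in the depletion libraries. Its log2 fold change of -0.57 had a standard error of 0.33, so that no change was detectable at this depth. Zkscan6 (ENSMUSG00000018347) was the only member with a value above 0. Its CPM was 7.51 and 11.7 without IAA and 9.74 and 14.1 with it, and the groups overlapped. Its log2 fold change came to 0.28 ± 0.23 (SE), and it ranged from 0.003 to 0.65 when 1 library was left out.

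**Figure D1:**
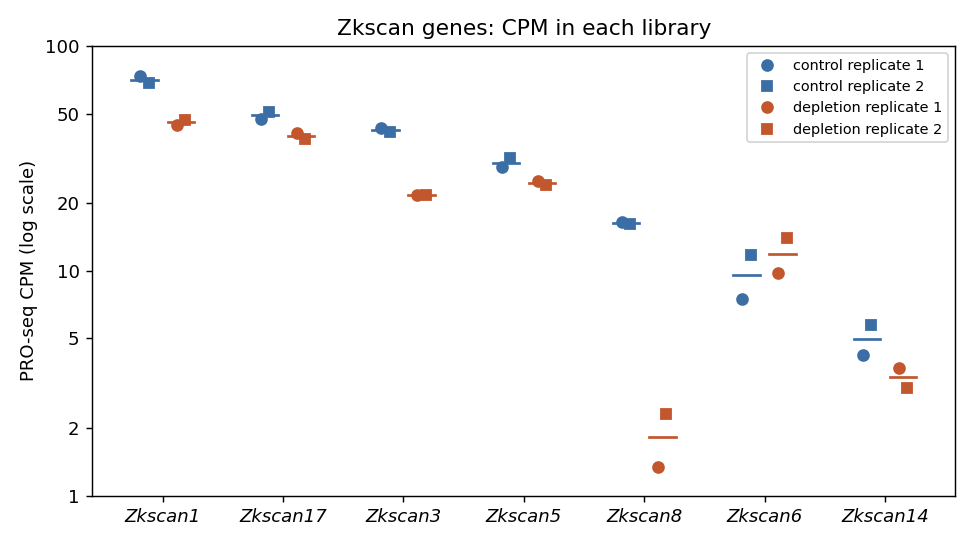
CPM on a log scale in each of the 4 libraries for the 7 Zkscan genes with a row, ordered by control mean; circles are replicate 1, squares replicate 2, and lines group means. Zkscan8 drops from about 16 CPM to 1.34 and 2.31, while the groups overlap only for Zkscan6.

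Among the 7 members, all of which passed the filter on low counts, 1 was called lower (Zkscan8) and 0 higher. Of all genes tested, 0.321% were called lower and 0% higher, with 7 genes at least 2-fold higher at an unadjusted p under 0.05 in edgeR and 0 called higher by DESeq2. Without the fold limit 3 members were lower, against a background of 1.40%, and 0 were higher, against 1.11%. At an unadjusted p under 0.05 in edgeR, 5 members were lower and 0 higher, beside 908 and 1011 of the 11853 genes. DESeq2 called 0 members higher. Both depletion libraries lay below both controls in 6 members, as they did in 22.9% of all genes. The median log2 fold change was -0.57 over the 7 members and -0.44 over the 6 without Zkscan8, beside -0.002 over all genes. Because the family was selected from this comparison, nothing is read from these shares.

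Per kilobase of annotated gene, the 7 members spanned a wide range of control levels. Zkscan1 was the highest, with 3.22 and 3.00 CPM per kb, followed by Zkscan3 with 2.73 and 2.63 and Zkscan5 with 1.68 and 1.84. Zkscan17 had 1.14 and 1.24, Zkscan8 0.92 and 0.90, Zkscan14 0.61 and 0.83, and Zkscan6 0.34 and 0.53 CPM per kb. No neighbours in this order overlapped between libraries, though the higher Zkscan14 value came close to Zkscan8 and the lower one to the higher Zkscan6 value. The median of all genes was 1.52 CPM per kb, so that 3 members lay above it. After depletion Zkscan8 moved from the fifth place to the last, with 0.075 and 0.13 CPM per kb. In the controls 32.9% of genes had a lower level per kb than Zkscan8, and after depletion 1.27%. Zkscan5 and Zkscan3 changed places, with 1.46 and 1.40 against 1.38 in each library. Zkscan6 and Zkscan14 also changed places, with ranges that overlapped.

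The table held 3 more genes of this name, which were added after their values had been seen. Zkscan2 had a log2 change of -0.35 ± 0.16 (SE). Zkscan7 had -0.35 ± 0.34 (SE), and its depletion libraries differed widely, with 38 and 14 counts. Zkscan16 had 0.16 ± 0.27 (SE). None of these 3 passed the adjusted p.

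Zkscan8, Zkscan3 and Zkscan4 belong to one cluster on chromosome 13. Of 33 annotated genes whose start lies within 200 kb of that of Zkscan8, 9 had a row and 8 were tested. On the side of lower coordinates stood Zkscan3 and 3 further genes tested. All 4 had both depletion libraries below both controls, as had 22.9% of all genes. Zscan26, a SCAN zinc-finger gene 77.4 kb from the Zkscan8 start, had 35 and 45 control counts and 22 and 20 depletion counts. Its log2 fold change came to -1.65 ± 0.26 (SE), and it was called. Pgbd1, derived from a transposase gene, lies at 90.1 kb and had a value of -0.63 ± 0.21 (SE). Zscan12, at 168 kb, had -0.81 ± 0.29 (SE). Neither passed the adjusted p. Nkapl, at 62.6 kb, had between 0 and 5 counts per library and was not tested.

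On the other side of Zkscan8 lie olfactory receptor genes, none of them with a row, and then histone genes. The nearest gene tested was H2bc13, at 185 kb, with a log2 change of -0.27 ± 0.28 (SE). H2ac13 had -0.47 ± 0.15 (SE) and H2bc14 -0.17 ± 0.11 (SE). None of the 3 passed the adjusted p. Both depletion libraries lay below both controls in 2 of them, as they did in 22.9% of all genes. The cluster's genes thus had the lower values on the zinc-finger side, and whether they differ from the histone side was not tested.

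**Figure D2:**
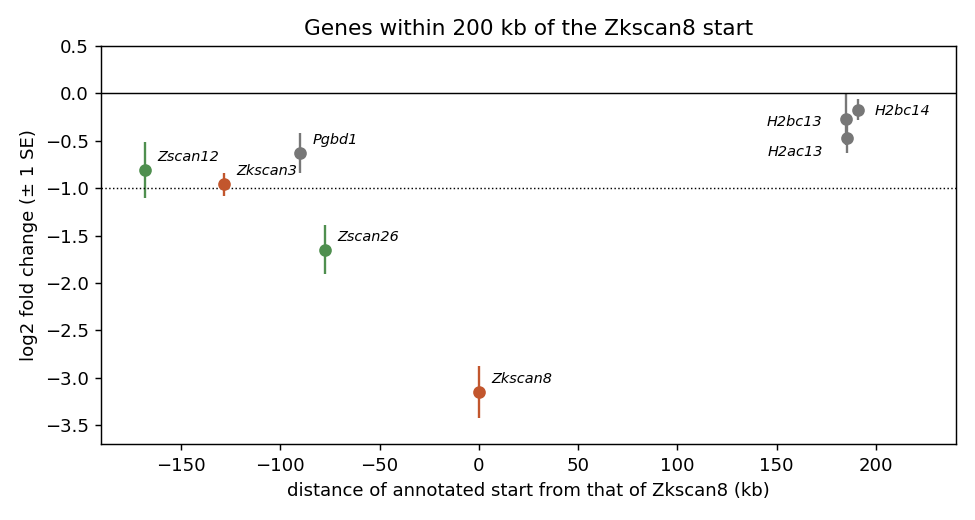
Log2 fold change (depletion against control, TMM scaling) with 1 standard error for the 8 tested genes whose start lies within 200 kb of the Zkscan8 start, by distance in kb along chromosome 13; the dotted line marks a 2-fold fall. Zkscan8 and Zscan26 lie below the line, Zkscan3 just above it at -0.96, and the 3 histone genes between -0.47 and -0.17.

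The other members had different surroundings. Zkscan14 and Zkscan5 start 2.69 kb apart on chromosome 5 and run away from each other (chr5:145194946-145201868, minus strand, and chr5:145204562-145221750, plus strand). The gene tested next to Zkscan14 was Atp5j2, with a log2 change of -0.40 ± 0.18 (SE), and the one next to Zkscan5 was Zfp655, with -0.10 ± 0.08 (SE). Beside Zkscan1 lies Zscan21, a further SCAN gene, which had 0.01 ± 0.13 (SE), while Zkscan1 itself fell. The nearest gene tested on the other side of Zkscan1 was Mepce, 297 kb away, with -0.04 ± 0.09 (SE). Zkscan6 (chr11:65807175-65829239, plus strand) had Map2k4, 18.9 kb away, and Pirt, 1105 kb away, as the nearest genes tested, each at 0.10. Zkscan17 (chr11:59485520-59526751, minus strand) holds 4933439C10Rik within its span on the opposite strand, at -0.11, and the counting kept the strands apart. The gene tested on its other side was Nlrp3, at 0.23. None of these neighbours passed the adjusted p.

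RefSeq's promoter table (250 bases before each start and 50 after it) held windows for 4 of the 7 members, Zkscan1, Zkscan6, Zkscan8 and Zkscan17, and one for Zkscan4. The Zkscan17 window is set on a RefSeq start (position 59506640 of chromosome 11) that lies inside the annotated gene and not at its first base, so that its matches do not describe the start used for its position. Short sequences were searched on both strands and their shares counted over the 12361 windows of genes in the count table. The GC box GGGCGG was found in Zkscan6 and Zkscan8, and in 62.6% of windows. The ETS-type sequence CCGGAAG was found in Zkscan8, where 2 matches on opposite strands overlap at the start, and in Zkscan1, and in 17.6% of windows. The CCAAT box (CCAAT) was found in Zkscan1, Zkscan6 and Zkscan17, and in 37.8% of windows. ACTACA was found in Zkscan1 and in 10.4%. The window of Zkscan4, which has no row and is not in these shares, also held CCGGAAG and ACTACA. No member window held TATAAA, TGACGTCA, AAGATGGC or TGCGCA, which were found in 7.07%, 3.12%, 4.39% and 13.7% of windows.

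A further sequence was taken from the called genes that are no Zkscan members. Of 37 such genes 33 had a window, and the 8 bases shared by most of them, among those in under 2% of all windows, were CCATAGAG. It was found in 9 of these 33 genes and in 1.12% of all windows, and the next sequence was found in 8. Zkscan8 was the only one of the 4 members with a window to hold it, 41 bases before its start. Since the sequence was picked from genes called in this comparison, its presence there is a description and not evidence of binding.

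The 5 genes most like Zkscan8 by the distance between their centred log2 CPM over the 4 libraries were Xrn1, an exoribonuclease gene, at a distance of 0.45, Thg1l, a tRNA-modifying enzyme gene, at 0.81, Cops9, a COP9 signalosome subunit gene, at 0.82, Eef1akmt2, a methyltransferase gene, at 0.88, and Nek4, a kinase gene, at 0.93. The nearest member was Zkscan3, at 2.03, which ranked 54 among all other genes. Of the 5 genes, Xrn1, Eef1akmt2 and Nek4 hold CCATAGAG in a window, while Thg1l and Cops9 do not. All 5 were called lower and so belong to the genes from which this sequence was picked. Its presence in them is therefore no separate finding. The stretches around the match are set below that of Zkscan8, in GRCm38.p6 (mm10). The match is in capitals, and each run is on the strand that reads CCATAGAG. Nek4 holds another match 36 bases after its start, which is not shown.

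Zkscan8, chr13:21531139-21531165, minus strand: tgctggcctaCCATAGAGctgtcagac

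Xrn1, chr9:95954736-95954762, minus strand: tccgccagaCCATAGAGcaaaccgtgg

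Eef1akmt2, chr7:132852621-132852647, plus strand: tcgaagccgCCATAGAGacgcgatttg

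Nek4, chr14:30951292-30951318, minus strand: gaggacctgCCATAGAGcttcgctcct

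Zscan25, chr5:145280365-145280391, plus strand: ccatgaccgaCCATAGAGacatacctc

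Zfp202, chr9:40192140-40192166, plus strand: aggggactggCCATAGAGggcagcagt

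The match reads along the gene in Zkscan8, Zscan25 and Zfp202 and against it in Xrn1, Eef1akmt2 and Nek4. The last 2 lines are SCAN genes described next, which were added because they hold the sequence. Across all genes tested, 122 held CCATAGAG in a window, of which 10 were called lower, 25 were lower without the fold limit and 83 had a log2 fold change below 0, with a median of -0.15. Of all genes tested, 0.321% were called lower, 1.40% were lower without the fold limit and 5995 of 11853 lay below 0. Of the 10 called, 9 are genes from which the sequence was picked and the other is Zkscan8, so that this share was fixed by the choice. These genes were not left out of the 25, the 83 or the median either. The other 112 of the 122 were not called at 2-fold.

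Of 31 listed SCAN genes outside the Zkscan name, 18 had a row and all 18 were tested. Among the 13 others, Zfp496 and Zfp483 are older symbols of Zkscan17 and Zkscan16. The list and the values of its strongest members were known before it was drawn up. Called lower were 2 genes, beside 0.321% of all genes, Zscan26, described above, and Zfp445, which acts in the maintenance of imprints. Zfp445 had 73 and 76 control counts and 27 and 19 depletion counts, a log2 change of -2.41 ± 0.22 (SE). Without the fold limit 2 more genes fell, which made 4 of 18, beside 1.40% of all genes. Zscan25 had 167 and 152 control counts and 175 and 137 depletion counts, a log2 change of -0.76 ± 0.13 (SE). Zfp202 had 51 and 47 control counts and 50 and 41 depletion counts, a log2 change of -0.83 ± 0.21 (SE). These counts look level because the depletion libraries were deeper.

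The other 14 SCAN genes did not pass, and their values ran from -0.81, for Zscan12, to 0.27, for Zfp397. Zscan21 (0.01), Zfp446 (0.01), Zscan29 (0.002) and Zfp24 (-0.002) were close to 0, as was Scand1 (0.01), which encodes a SCAN domain without fingers and had 6 to 18 counts per library. The median over the 18 genes was -0.12, beside -0.002 for all genes, and both depletion libraries lay below both controls in 8 of them, as they did in 22.9% of all genes. The windows of Zscan26 and Zfp445 did not hold CCATAGAG, whereas those of Zscan25 and Zfp202 did. The window of Zscan12, which did not pass, did not hold it either. The windows of the other SCAN genes that did not pass are not described here.

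Genes of the corepressor that many KRAB domains recruit showed no call. All 12 listed genes were tested, 0 were called with or without the fold limit, and DESeq2 also called 0. Over all genes the shares were 0.321% lower and 0% higher at 2-fold, and 1.40% lower and 1.11% higher without the fold limit, so that nothing particular to these 12 genes is read from a count of 0. At an unadjusted p under 0.05 in edgeR, which 908 of the 11853 genes passed as lower and 1011 as higher, there was 1, Atf7ip, a cofactor of Setdb1, at -0.29 ± 0.12 (SE). Trim28 had 256 and 241 CPM without IAA and 241 and 231 with it, a log2 change of -0.07 ± 0.06 (SE). Setdb1 had -0.04 ± 0.09 (SE). The median over the 12 genes was -0.04, and their values ranged from -0.29 to 0.11.

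**Figure D3:**
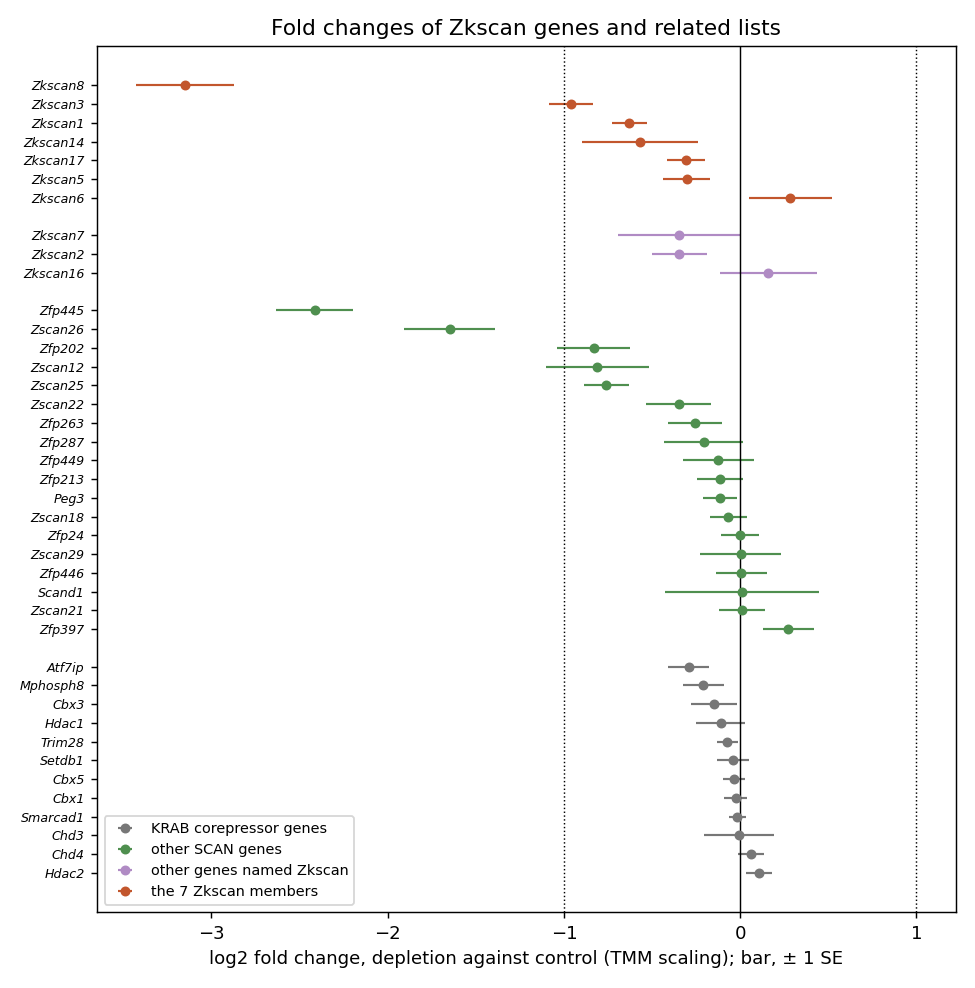
Log2 fold change, depletion against control under TMM scaling, with 1 standard error for the 7 Zkscan members (red), 3 further genes named Zkscan (purple), 18 other SCAN genes (green) and 12 KRAB corepressor genes (grey); dotted lines mark 2-fold changes. Zkscan8, Zfp445 and Zscan26 lie beyond the 2-fold line, and the corepressor genes lie between -0.29 and 0.11.

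The members' values under 13 other settings kept their signs. Zkscan8 ranged from -3.57 to -2.80, Zkscan3 from -1.06 to -0.93 and Zkscan1 from -0.73 to -0.58. Under every setting that tested them these 3 passed the adjusted p, and Zkscan17 joined them under the recovered size factors in edgeR, at -0.41. Zkscan8 and Zkscan14 were not tested where a mean count of 50 was asked for.

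**Figure D4:**
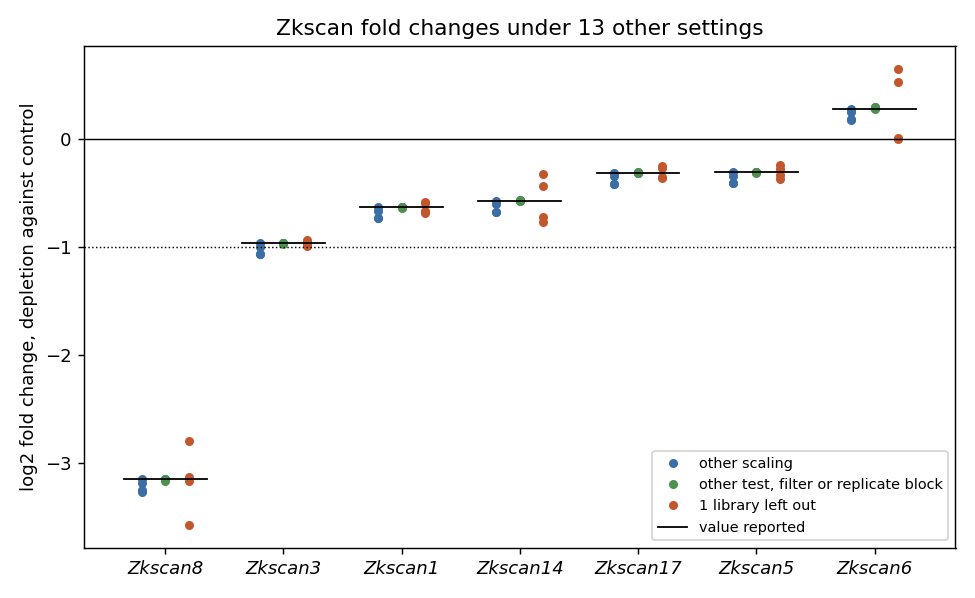
Log2 fold change, depletion against control, of each of the 7 Zkscan members as reported (black line) and under other scalings (blue), other tests, filters or the replicate block (green) and with 1 library left out (red); the dotted line marks a 2-fold fall. The spread for Zkscan8, Zkscan14 and Zkscan6 comes from the fits that leave out 1 library. For Zkscan3 the lowest value, -1.06, comes from the scaling, and the highest, -0.93, from the fit without control replicate 1.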

How the data were processed

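PRO-seq libraries were sequenced by the authors as paired 36-bp reads with a molecular identifier. Per the labels and the study's methods, adapters were trimmed with cutadapt 1.18, reads were mapped uniquely to mm10 with Bowtie 1.2.2 and collapsed by identifier, and 3′ ends of nascent RNA were counted on the transcribed strand over genes with CAGE-corrected starts. The deposited counts are whole numbers, not normalized. Unique mapping can undercount duplicated genes. The authors' DESeq2 table also holds fold changes and p-values, which were not used, and a mean normalized signal, deposited by the authors, which served to recover size factors. The control libraries had factors of 0.699 and 0.740, the depletion libraries 1.32 and 1.24, although the methods give all replicates of a condition one factor from the Drosophila spike-in. They were used only as an alternative scaling.

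Here 11853 of 12486 genes passed filterByExpr (minimum count 10, minimum total 15). Libraries were scaled with TMM and tested across all genes with edgeR 4.0.16 in R 4.3.3 (quasi-likelihood, two-sided, group as the only term, Benjamini-Hochberg adjustment). Standard errors (SE) were derived from the log2 change and its F statistic, and a mean over a group has n = 2. DESeq2 1.42.0 was an alternative. The scripts were tested on simulated data. Groups follow the labelled treatment. Replicates of a group differed by more than counting noise (chi-square per degree of freedom 1.90 in the controls and 1.51 after depletion). The standard errors come from a fit that models spread beyond counting noise, but they rest on n = 2 per group.

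Gene coordinates are those of GENCODE M21 (mm10), where 12474 of 12486 identifiers were found, so that lengths and starts lack the authors' CAGE correction. Promoter sequences came from RefSeq (GRCm38.p6). Members and gene lists were chosen with earlier results of these data known. Named genes were the members, Zfp574, Trim28, Setdb1, called genes of both lists, the 5 genes most like Zkscan8, genes starting within 200 kb of Zkscan8 and the nearest tested gene on each side of the other members. Likeness was the Euclidean distance of log2 CPM (prior count 2). A few other genes were named after their values were seen. Protein sequences were not used here.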

Additional observations from a re-analysis of the deposited data

How the results depend on the processing

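The settings tried were other scalings, tests and filters, a replicate block, no fold limit, and leaving out each library. The gene groupings with all 10 Zkscan-named genes or without Zkscan8 were chosen after seeing the data. The count of members called lower was 1. It was 2 under scaling to size factors taken back from the authors' mean signal, in edgeR and in DESeq2 alike, where Zkscan3 was added. With those factors edgeR called 57 genes lower in all, against 38, and DESeq2 39, against 28 with its own factors. The count of members called lower was 0 with a mean count of at least 50, since Zkscan8 was not tested. It was 3 with no fold threshold and 0 without Zkscan8. The count of SCAN genes called was 2, and it was 0 under the mean-count filter of 50 and 4 with no fold threshold. With that filter 18 genes in all were called lower, against 38. With no fold threshold edgeR passed 166 genes lower and 132 higher in all, and DESeq2 61 lower and 14 higher, with 3 members and 3 SCAN genes among the lower ones. The median of the members was -0.57, and it was -0.67 with the recovered factors in edgeR and in DESeq2, whose scaling lowered the median of all genes to -0.11. It was -0.31 with a mean count of at least 50, -0.35 over all 10 Zkscan-named genes and -0.44 without Zkscan8. With 1 library left out it ranged from -0.59 to -0.32, the latter without control replicate 2, where Zkscan14 was the middle value. In each such fit the lone library was assumed to vary like the pair of the other group, and the count of members called lower was 1. Replicate numbers did not pair these libraries, with a correlation of 0.03 between replicate differences. With the replicate block the median was -0.56 and 1 member was called lower. Shares of promoters that hold a searched sequence were lower in the upstream part alone, for example 35.5% for CCAAT and 13.5% for CCGGAAG, where Zkscan8 lost its match. No result reversed. Zkscan14 rested on few counts, and its change was not detectable at this depth. Zkscan6, at 0.28 ± 0.23 (SE), had replicates that differed within each group and did not pass the adjusted p.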
